A study of Homo sapiens with 136 samples.

Results

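The genes of sphingosine-1-phosphate (S1P) synthesis and export described here are SPNS2, SPHK1, SPHK2, SGPL1, SGPP1 and SGPP2. They were picked by name, and all 6 were among the 25435 gene symbols of the count table. The choice used measured values: SPNS2 went opposite ways under MEK inhibitors in the 2 cell lines. MEK inhibitors against the autophagy inhibitor alone are therefore given as a description, with no test. The autophagy inhibitors are compared over libraries that include those with MEK inhibitors, and again without them.

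S1P is a signalling lipid made inside the cell when a sphingosine kinase, SPHK1 or SPHK2, phosphorylates sphingosine. SPNS2, the spinster homolog that carries S1P out through the plasma membrane, passes it to G-protein-coupled receptors on the same or on neighbouring cells. The lyase SGPL1 cleaves S1P for good, and the phosphatases SGPP1 and SGPP2 return it to sphingosine. The kinases RAF, MEK and ERK, the targets of the drugs used here, act in sequence in a growth signalling cascade that is active in pancreatic ductal adenocarcinoma (PDA).

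RNA was counted in AsPC-1 and PANC-1, established human PDA cell lines, by PLATE-Seq, which barcodes and pools RNA from cells lysed in multi-well plates. After 24 h in culture, cells received for a further 24 h either hydroxychloroquine (HCQ), an autophagy inhibitor that blocks lysosomal breakdown, or Compound 19, an inhibitor of the lipid kinase Vps34 (VSP34I in the labels). In each line 6 libraries had HCQ alone and 6 the Vps34 inhibitor alone, and the others had either of these with 1 of 14 kinase inhibitors (2 libraries per combination, 1 on each of plates A and B), which makes 68 libraries per line. Plates A and B are names given here to the codes PSA and PSB in the sample titles, whose meaning the labels do not state. RAF was inhibited with Dabrafenib, GDC-0879, PLX8394, RAF709 or Sorafenib. MEK was inhibited with Binimetinib, Cobimetinib, Refametinib (spelled Refamatinib in the AsPC-1 labels), Selumetinib or Trametinib, and ERK with AZD0364, Ravoxertinib, SCH772984 or Ulixertinib. All groups, those called alone included, carried an autophagy inhibitor, and no group was untreated. Each drug was used at a concentration set separately, where 80% of cells lived through 48 h of that drug by itself. The sources used here do not give the concentrations, so drugs are set side by side and not tested against each other. The wells of a group are not stated to be separate cultures, so p-values measure only the spread between these wells, which may be technical.

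Library totals ran from 1419228 to 5172291 counts in AsPC-1 and from 1668713 to 5871860 in PANC-1, and their medians by drug class lay between 2924110 and 4017740. Ductal epithelial markers (keratins, EPCAM and CDH1, 6 genes) summed to 2931 to 4036 CPM (counts scaled to a library total of 1000000) in the alone libraries of AsPC-1 and to 579 to 759 CPM in those of PANC-1. Endothelial markers summed to at most 2.97 CPM and immune markers to at most 12.9 CPM in any library. The endothelial receptors KDR and TEK and the immune genes PTPRC and CD3E were at 0 in most classes. Of 10 genes read as ERK output, 9 of 10 tested in AsPC-1 and 9 of 9 in PANC-1 were lower under ERK inhibitors than alone. Under RAF inhibitors 5 of 10 and 3 of 9 were lower.

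The level of each gene was first compared across the 68 libraries of a line. SPNS2 (ENSG00000183018.8, chr17:4498838-4539035, plus strand, GRCh38) ran from 8.60 CPM through a median of 82.3 to 169.0 in AsPC-1, and from 2.77 through 10.96 to 40.8 in PANC-1. SGPL1 (ENSG00000166224.16, chr10:70815961-70881173, plus strand) had its lowest, median and highest levels at 15.1, 29.7 and 46.5 CPM in AsPC-1, and PANC-1 had 40.3, 59.3 and 81.5. SGPP1 (ENSG00000126821.7, chr14:63684214-63728039, minus strand) lay at 0.606, 4.82 and 10.98 CPM in AsPC-1, and PANC-1 had 3.74, 7.92 and 17.9. SPHK2, SPHK1 and SGPP2 had median counts per library of 11 or fewer, against 17 or more for the other members, and their values carry more counting error. SPHK2 (ENSG00000063176.15, chr19:48619291-48630717, plus strand) lay at 0, 2.56 and 8.56 CPM in AsPC-1, and PANC-1 had 0.444, 2.12 and 5.42. SPHK1 (ENSG00000176170.13, chr17:76376584-76387860, plus strand) lay at 0, 2.42 and 6.56 CPM in PANC-1, while in AsPC-1 it was at 0 in 35 of 68 libraries and reached 2.39 CPM. SGPP2 (ENSG00000163082.9, chr2:222424517-222560948, plus strand) was the reverse: it lay at 0, 3.30 and 12.1 CPM in AsPC-1 and was at 0 in 38 of 68 libraries of PANC-1, where it reached 1.18 CPM. SPHK1 in AsPC-1 (96 counts in all 68 libraries) and SGPP2 in PANC-1 (52 counts) did not pass the filter on low counts, so each line had 5 tested members. The plate codes of each line were its own, so line and plate cannot be told apart in these levels. No test of them was run. Levels of different genes are not compared here, since the counts are not per length.

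SPNS2 was the member whose RNA changed most clearly with the kinase inhibitors, and it did so in opposite directions in the lines. In AsPC-1 it rose 5.53-fold under ERK inhibitors, and in PANC-1 it fell 3.22-fold. The libraries given an autophagy inhibitor alone held 10.3 to 33.9 CPM of SPNS2 in AsPC-1 (median 20.6, n = 12) and 21.7 to 40.8 in PANC-1 (median 28.1, n = 12). Under ERK inhibitors AsPC-1 held 59.2 to 169.0 CPM (median 113.9, n = 16) and PANC-1 held 2.77 to 21.8 (median 7.97, n = 16). All 16 ERK libraries of AsPC-1 lay above every alone library, and 15 of 16 in PANC-1 lay below every alone library. In these bulk wells, fewer cells of a type and less RNA per cell cannot be told apart.

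**Figure D1:**
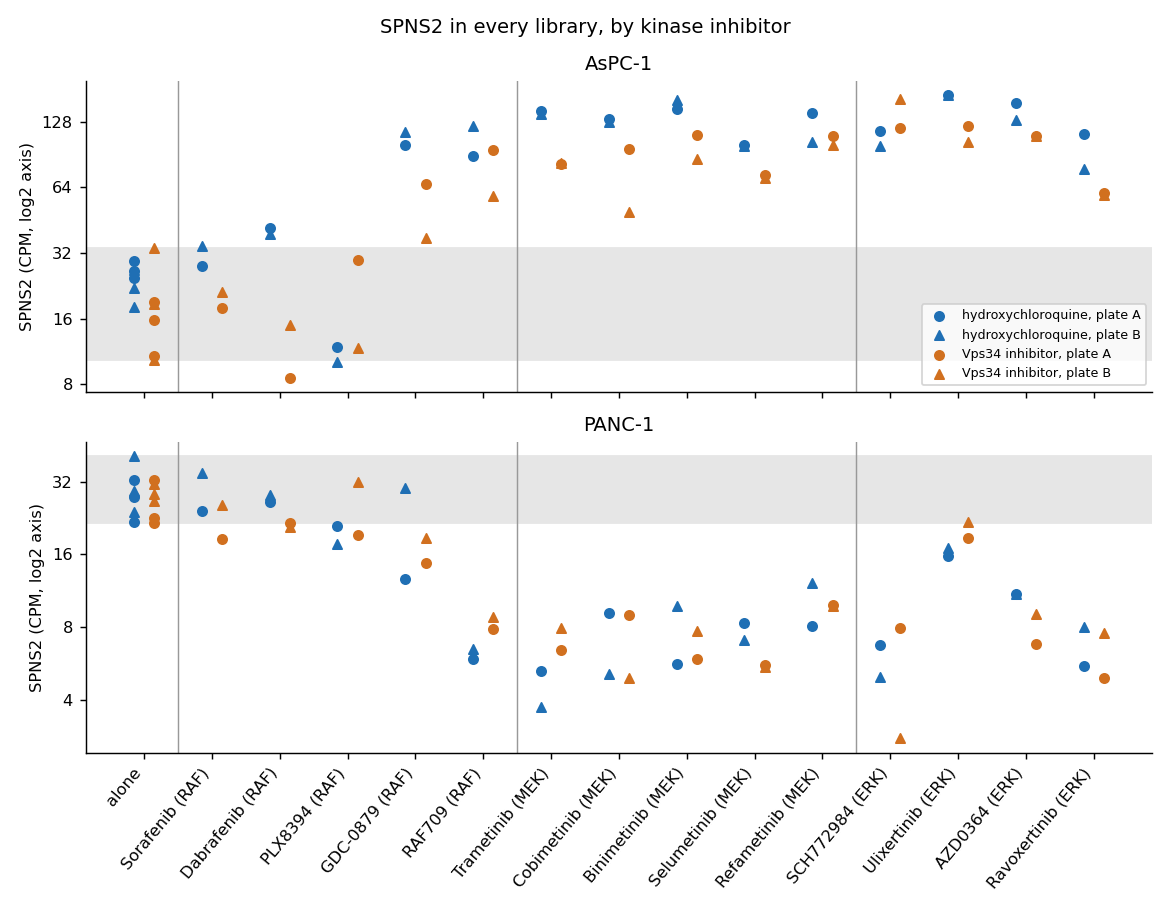
SPNS2 in each library, in CPM on a log axis, for each kinase inhibitor and for the autophagy inhibitors alone, in AsPC-1 and PANC-1. Each point is 1 library, coloured by autophagy inhibitor and shaped by plate, and the grey band is the range of the alone libraries; the 16 ERK libraries of AsPC-1 lie above every alone library, and 15 of 16 in PANC-1 lie below.

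The change against the autophagy inhibitor alone was 2.47 ± 0.14 (log2 fold change ± SE; edgeR quasi-likelihood test, adjusted p = 1.74e-20) in AsPC-1 and -1.69 ± 0.13 (adjusted p = 6.77e-15) in PANC-1. Of the 5 tested members, 3 passed in AsPC-1 under ERK inhibitors (SPNS2 and SGPP2 higher, SGPP1 lower), where 31.1% of all tested genes passed. In PANC-1 1 passed, where 14.1% of all genes did. These comparisons share their alone libraries with the MEK comparison that chose the members. ERK against RAF inhibitors shares no library with it: there SPNS2 differed by 1.71 ± 0.11 in AsPC-1 (adjusted p = 1.78e-17) and by -1.02 ± 0.12 in PANC-1 (adjusted p = 6.38e-09). Within plates A and B fitted alone it was 1.72 and 1.76 in AsPC-1 (adjusted p = 1.99e-08 and 0.000778) and -0.87 and -1.21 in PANC-1 (adjusted p = 0.0112 and 0.00156). With the drugs of a class also pooled as replicates on each plate, it was 1.31 and 1.45 in AsPC-1 (adjusted p = 0.0169 and 0.0129), and the PANC-1 values of -0.85 and -1.14 did not pass (adjusted p = 0.0596 and 0.0529). In that comparison 2 members passed in AsPC-1, SPNS2 and SGPP2, against 19.9% of all tested genes, and 1 passed in PANC-1, against 13.2%. The change of SPNS2 from RAF to ERK inhibitors differed between the lines by 2.72 ± 0.16 (AsPC-1 minus PANC-1, log2, fit of both lines, adjusted p = 2.26e-25), and the change from alone to ERK inhibitors by 4.15 ± 0.19 (adjusted p = 1.38e-34). With SGPP1, SPNS2 made 2 members that passed each of these line differences, which 7.61% and 13.9% of all genes passed.

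RAF inhibitors as a class moved SPNS2 less, and their libraries spanned a wide range. AsPC-1 held 8.60 to 121.6 CPM under RAF inhibitors (median 35.9, n = 20), with 11 of 20 libraries above every alone library and 2 below. PANC-1 held 5.91 to 34.8 CPM (median 20.1, n = 20), with 13 of 20 below every alone library. Like the ERK class, the RAF class and each single drug below were compared with the alone libraries that the MEK comparison used to choose the members. The class difference from alone was 0.76 ± 0.13 in AsPC-1 (edgeR, adjusted p = 3.42e-05) and -0.67 ± 0.12 in PANC-1 (adjusted p = 0.000451). Within plates A and B alone it was 0.86 and 0.63 in AsPC-1, where the first passed (adjusted p = 0.00116 and 0.233), and -0.76 and -0.61 in PANC-1, where neither did (adjusted p = 0.132 and 0.276). With the drugs of the class also pooled as replicates, no single plate passed in either line (1.32 and 1.01, -0.62 and -0.44; adjusted p = 0.126, 0.362, 0.607 and 0.883). SPNS2 was the sole tested member to pass in either line, where 8.66% of all tested genes passed in AsPC-1, against 0.539% in PANC-1. Without RAF709 the values were 0.41 (adjusted p = 0.0722) and -0.34 (adjusted p = 0.396), so the RAF class call ended in both lines when that drug was left out.

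Single RAF inhibitors split into those that left SPNS2 near the alone level and those that did not. Under RAF709, AsPC-1 held 89.2 and 121.6 CPM with HCQ (plates A and B) and 94.7 and 58.1 with the Vps34 inhibitor, all 4 above every alone library. Under GDC-0879 it held 100.2 and 114.7 with HCQ and 66.0 and 37.4 with the Vps34 inhibitor. SPNS2 rose by 2.16 ± 0.18 under RAF709 (adjusted p = 1.08e-13) and by 1.83 ± 0.18 under GDC-0879 (adjusted p = 4.51e-11), drugs under which 12.7% and 10.9% of all tested genes passed. Sorafenib, Dabrafenib and PLX8394 did not pass in AsPC-1. Their differences were 0.24 ± 0.20 (adjusted p = 0.852), 0.05 ± 0.21 (adjusted p = 0.961) and -0.49 ± 0.22 (adjusted p = 0.438), drugs under which 0.102%, 3.05% and 0.76% of all genes passed. Dabrafenib held 41.6 and 39.0 CPM with HCQ and 8.60 and 15.02 with the Vps34 inhibitor, so its libraries lay on both sides of the alone range. PLX8394 held 11.9 and 10.1 with HCQ and 29.6 and 11.8 with the Vps34 inhibitor.

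In PANC-1 RAF709 was the only RAF inhibitor to pass for SPNS2. Its 4 libraries held 5.91, 6.50, 7.89 and 8.81 CPM, all below the lowest alone library, a difference of -2.002 ± 0.22 on the log2 scale (adjusted p = 3.18e-09) where 8.47% of all genes passed. GDC-0879 held 12.6 and 29.998 CPM with HCQ and 14.7 and 18.7 with the Vps34 inhibitor, a difference of -0.60 ± 0.19 that did not pass (adjusted p = 0.189; 0.42% of all genes passed). Sorafenib, Dabrafenib and PLX8394 held 17.6 to 34.8 CPM between them, and their differences of -0.16, -0.24 and -0.36 did not pass either (adjusted p = 0.91, 0.909 and 0.612), where 0.0871%, 0.0871% and 0.143% of all genes passed. GDC-0879 thus passed in AsPC-1 and not in PANC-1; whether its effect differs between the lines was not tested.

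Each of the 4 ERK inhibitors passed for SPNS2 in each line, with rises in AsPC-1 and falls in PANC-1. Ulixertinib gave the highest levels in AsPC-1, 169.0 and 169.0 CPM with HCQ and 122.5 and 103.1 with the Vps34 inhibitor (2.78 ± 0.17, adjusted p = 5.48e-18). In PANC-1 the same drug gave the smallest fall of the class, with 15.8 and 16.9 CPM with HCQ and 18.7 and 21.8 with the Vps34 inhibitor (-0.67 ± 0.19, adjusted p = 0.0121), which passed on neither plate alone (-0.67 and -0.65, adjusted p = 0.2 and 0.196). The last of these libraries is the sole ERK library of PANC-1 inside the alone range. SCH772984 held 116.1, 98.4, 119.8 and 162.1 CPM in AsPC-1 (2.58 ± 0.17, adjusted p = 9.43e-17), and AZD0364 held 155.9, 130.6, 110.4 and 110.3 (2.66 ± 0.17, adjusted p = 2.36e-17). Ravoxertinib, at 111.6, 77.9, 60.5 and 59.2 CPM, gave the smallest rise of the class in AsPC-1 (1.86 ± 0.18, adjusted p = 2.01e-11). It was near the largest fall in PANC-1, at 5.55, 8.01, 4.95 and 7.58 CPM (-2.16 ± 0.22, adjusted p = 3.50e-10). SCH772984 held 6.78, 4.96, 7.94 and 2.77 CPM there (-2.31 ± 0.23, adjusted p = 9.09e-11), and AZD0364 held 10.97, 10.9, 6.80 and 9.06 (-1.60 ± 0.21, adjusted p = 2.29e-07). Of all tested genes, 14.7% (Ravoxertinib), 17.5% (SCH772984), 18.5% (AZD0364) and 21.3% (Ulixertinib) passed in AsPC-1, and 4.36%, 6.88%, 5.24% and 14.6% in PANC-1.

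The MEK values, which chose the members, were of similar size. AsPC-1 held 49.1 to 161.1 CPM of SPNS2 under MEK inhibitors (median 101.6, n = 20) and PANC-1 held 3.73 to 12.2 (median 7.41, n = 20). All 20 libraries lay above every alone library in AsPC-1, and all 20 lay below in PANC-1. The class differences were 2.35 ± 0.13 and -2.01 ± 0.12, in comparisons that 28.9% and 18.5% of all tested genes passed. Single MEK inhibitors ran from 2.02 (Selumetinib) to 2.61 (Binimetinib) in AsPC-1 and from -1.52 (Refametinib) to -2.37 (Trametinib) in PANC-1.

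**Figure D2:**
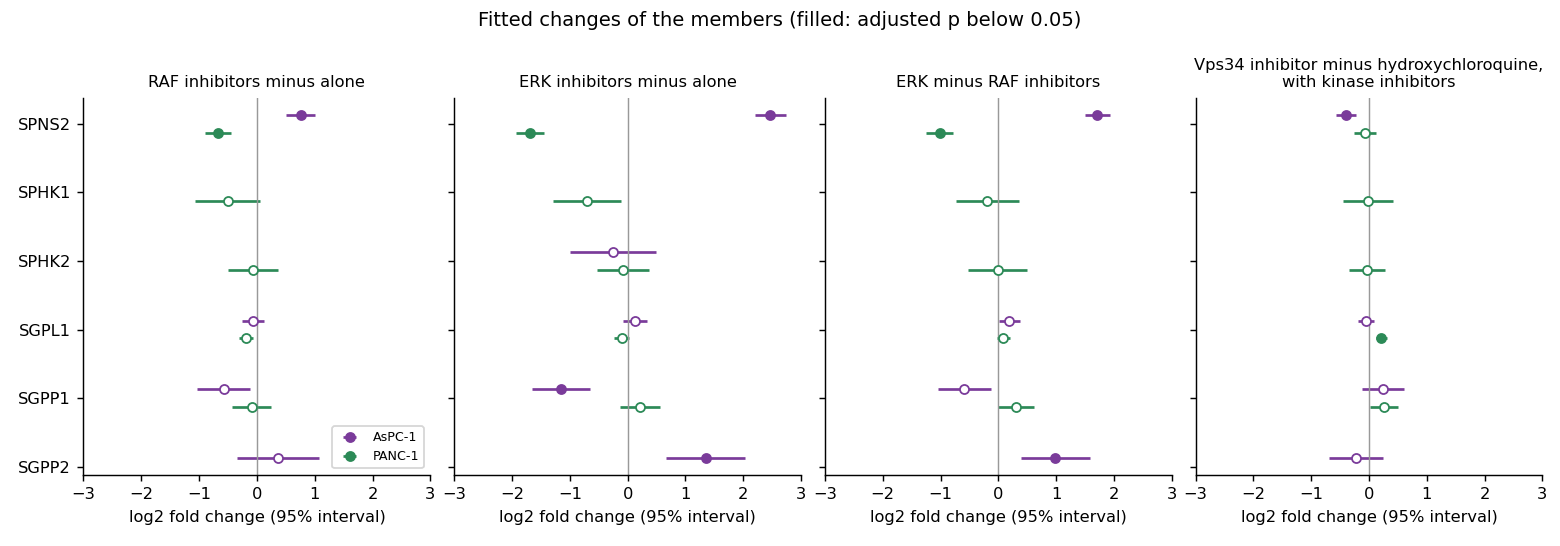
Log2 fold change with its 95% interval for each member and line, in 4 comparisons: RAF inhibitors against alone, ERK inhibitors against alone, ERK against RAF inhibitors, and the Vps34 inhibitor against hydroxychloroquine with kinase inhibitors. Filled points passed (adjusted p below 0.05) and members with no fitted value are left blank; under ERK inhibitors SPNS2 lies at 2.47 (AsPC-1) and -1.69 (PANC-1), and the other filled points are SGPP1 (-1.16) and SGPP2 (1.35) of AsPC-1.

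When the 30 treatments of a line were put in order of mean SPNS2, most neighbours in the order could not be told apart by their 2 libraries. In AsPC-1 the libraries of 25 of 29 neighbouring pairs overlapped, and in PANC-1 those of 27 of 29. AsPC-1 ran from Ulixertinib with HCQ (mean 169.0 CPM, 2 libraries) down to PLX8394 with HCQ (mean 11.02). PANC-1 ran from Sorafenib with HCQ (mean 29.5) down to Trametinib with HCQ (mean 4.50). The treatments with no kinase inhibitor stood at places 25 and 28 of 30 in AsPC-1 and at places 2 and 4 in PANC-1.

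SPNS2 was set beside SPRY4, an ERK-induced feedback inhibitor of the pathway, as a readout of ERK output under each drug. SPRY4 had a mean of 120.7 ± 41.6 CPM in the alone libraries of AsPC-1 (SD, n = 12). It was at 23.4 ± 3.79 under RAF709 and 47.5 ± 18.6 under GDC-0879 (SD, n = 4 each), at 59.8 ± 20.5 under Dabrafenib, and at 139.0 ± 68.1 and 147.4 ± 78.1 under PLX8394 and Sorafenib. The RAF inhibitors with the lowest SPRY4 were thus those with the highest SPNS2 in AsPC-1. Across classes this order did not hold for every drug there. Ravoxertinib, an ERK inhibitor, had a lower mean SPRY4 (10.9 CPM) than RAF709. Its mean SPNS2 was 77.3 CPM, not above the 90.9 of RAF709 or the 79.6 of GDC-0879, and the libraries of these drugs overlapped. In PANC-1 SPRY4 was at 43.5 ± 10.1 CPM alone (SD, n = 12), 2.72 ± 1.26 under RAF709, and 30.6 to 39.7 under the other 4 RAF inhibitors. There RAF709 had both the lowest SPRY4 and the lowest SPNS2 of its class. Ulixertinib in PANC-1 did not follow that order: SPRY4 was at 4.40 ± 1.66 CPM, close to SCH772984 at 4.0 ± 1.26, while SPNS2 averaged 18.3 ± 2.60 CPM against 5.61 ± 2.26. Over the 30 treatments, log2 CPM of SPNS2 and SPRY4 gave a Pearson r in AsPC-1 of -0.855 and a PANC-1 r of 0.791, and with DUSP6, the ERK phosphatase and feedback target, r was -0.794 in the former and 0.751 in the latter. The points share plates, and the treatments fall into classes, so these values are a description. They also include the MEK and alone treatments, whose SPNS2 values chose the members, so the opposite signs partly restate that choice.

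**Figure D3:**
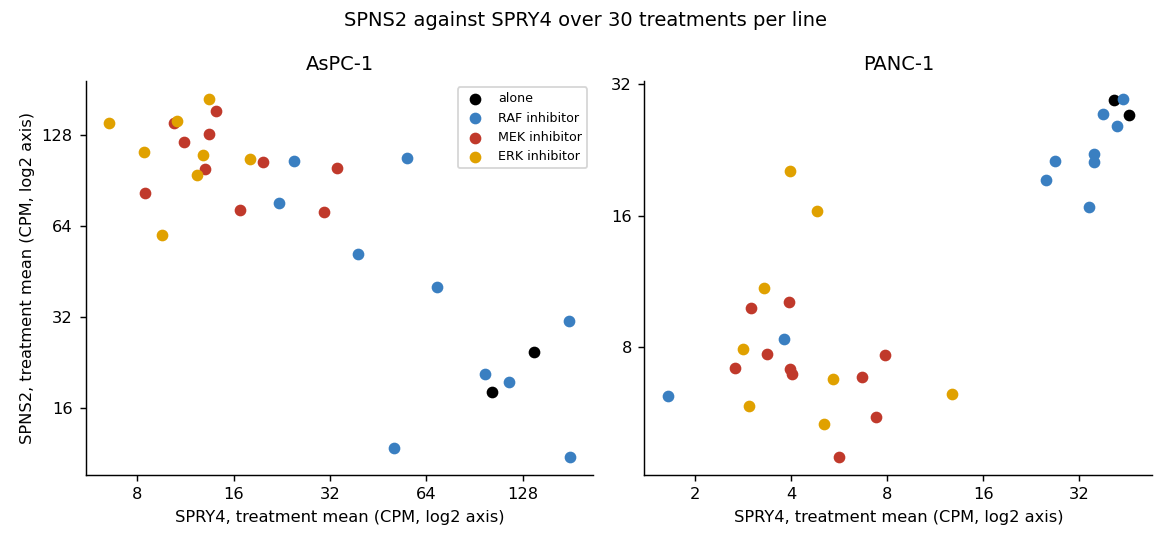
Mean SPNS2 against mean SPRY4 in each of the 30 treatments of a line, in CPM on log axes, coloured by drug class. SPNS2 is high where SPRY4 is low in AsPC-1 (r = -0.855) and low where SPRY4 is low in PANC-1 (r = 0.791). The points include the MEK and alone treatments, whose SPNS2 values chose the members.

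The genes whose treatment means were most like those of SPNS2, among all tested genes, were not the same in the lines. In AsPC-1 they were ANXA4 (r = 0.956), PLAC8 (r = 0.952) and TM4SF4 (r = 0.951). In PANC-1 they were ERCC1 (r = 0.887), F2R (r = 0.878) and F2RL1 (r = 0.875), the last a pair of protease-activated receptors. Among the members in AsPC-1, SGPP2 had r = 0.733 and SGPP1 r = -0.582 with SPNS2, over the same 30 treatments. All these r values include the MEK and alone treatments.

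Summed markers of cell types also differed between the classes. Ductal epithelial markers summed to 4821 to 6541 CPM in the ERK libraries of AsPC-1, above the 2931 to 4036 of the alone libraries, and 5 of 6 (KRT8, KRT18, KRT19, CDH1 and EPCAM) were higher under ERK than under RAF inhibitors. In PANC-1 the sum was 362 to 556 CPM under ERK inhibitors against 579 to 759 alone, and 1 of 6, KRT18, was lower than under RAF inhibitors. Between ERK and RAF inhibitors 19.9% of all tested genes passed in AsPC-1 and 13.2% in PANC-1. Fibroblast markers summed to 88.0 to 281.3 CPM in the ERK libraries of AsPC-1 and to 43.3 to 85.3 alone. Of these 6 genes, 2 of the 3 tested were higher (LUM and COL1A1), and COL1A1, a defining collagen, reached no more than 5.55 CPM in any ERK library. The count was 2 of 3 both against alone, where 31.1% of all tested genes passed, and against RAF inhibitors. In PANC-1, where SPNS2 fell, fibroblast markers summed to 59.6 to 99.9 CPM under ERK inhibitors and 36.8 to 65.3 alone. There 2 of 2 tested, COL1A1 and COL3A1, were higher than alone, where 14.1% of all tested genes passed. Against RAF inhibitors 1 of 2 was higher. The part of these markers in the SPNS2 result was not tested. The 3′ end of SPNS2 overlaps MYBBP1A (chr17:4538897-4555631, minus strand), and the sources used here do not say whether counting used strand. MYBBP1A held 4111 counts over all libraries of both lines, and SPNS2 held 17377 in AsPC-1 and 3764 in PANC-1. MYBBP1A differed between ERK and RAF inhibitors by 0.22 ± 0.16 in AsPC-1 (adjusted p = 0.381) and -0.19 ± 0.14 in PANC-1 (adjusted p = 0.436), in each line with the sign of SPNS2. Under MEK inhibitors against alone it was 0.38 ± 0.17 and -0.60 ± 0.15. The part of MYBBP1A reads in the SPNS2 counts was not tested.

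The sphingosine kinases make S1P, and neither passed any test of kinase inhibitors that was run. SPHK1 was not tested in AsPC-1. It was at 0 there in 3 of 12 alone, 8 of 20 RAF, 13 of 20 MEK and 11 of 16 ERK libraries. SPHK1 in PANC-1 held 0.888 to 6.56 CPM alone (median 3.17, n = 12), 0.970 to 5.97 under RAF inhibitors (median 2.53, n = 20) and 0.396 to 5.52 under ERK inhibitors (median 2.32, n = 16). The groups overlapped almost fully, with 2 of 16 ERK libraries below every alone library. SPHK1 differed from alone by -0.51 ± 0.28 under RAF inhibitors (adjusted p = 0.486) and by -0.70 ± 0.30 under ERK inhibitors (adjusted p = 0.12). The latter has a 95% interval of -1.28 to -0.11, before adjustment over all genes. ERK differed from RAF inhibitors by -0.19 ± 0.28 (adjusted p = 0.738), and no single RAF or ERK inhibitor passed, 0 of 9. Under MEK inhibitors SPHK1 held 0 to 3.57 CPM (median 1.71, n = 20), a difference of -1.18 ± 0.30 given as a description. SPHK1 overlaps PRPSAP1 on the other strand, which held 23573 counts over all libraries of both lines. The part of PRPSAP1 reads in the SPHK1 counts was not tested. The genes whose treatment means in PANC-1 were most like those of SPHK1 were CNTNAP3 (r = 0.690), EFR3B (r = 0.679) and RND3 (r = 0.676), all lower values than those of SPNS2.

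SPHK2, the other kinase, had overlapping levels in every class. In PANC-1 its medians were 1.999 CPM alone, 2.25 under RAF inhibitors, 2.16 under MEK inhibitors and 1.94 under ERK inhibitors. The differences from alone were -0.07 ± 0.22 (RAF, adjusted p = 0.98) and -0.08 ± 0.23 (ERK, 95% interval -0.53 to 0.37, adjusted p = 0.949). In AsPC-1 the alone libraries held 0.936 to 4.06 CPM (median 2.42) and the ERK libraries 0 to 8.56 (median 1.90), a difference of -0.25 ± 0.38 (adjusted p = 0.672). A combination, PLX8394 with the Vps34 inhibitor, had no SPHK2 count in either library. No estimate for RAF inhibitors in AsPC-1 was made by treatment group for that reason; with all drugs of a class as replicates, RAF minus alone was 0.18 ± 0.38 (adjusted p = 0.864) and ERK minus RAF was -0.22 ± 0.35 (adjusted p = 0.732). SPHK2 overlaps RPL18 and DBP on the other strand. DBP, a clock-controlled transcription factor, was higher under ERK inhibitors in AsPC-1 by 1.17 ± 0.14 (adjusted p = 5.76e-10), against the -0.25 ± 0.38 of SPHK2.

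For SGPL1, the lyase that removes S1P, the groups overlapped throughout. AsPC-1 held 18.3 to 39.5 CPM alone (median 29.3, n = 12) and 21.7 to 40.0 under ERK inhibitors (median 31.5, n = 16). PANC-1 held 56.4 to 81.5 alone (median 61.5) and 49.1 to 78.1 under ERK inhibitors (median 59.7). No difference between classes passed. ERK minus alone was 0.12 ± 0.10 in AsPC-1 (95% interval -0.08 to 0.33, adjusted p = 0.397) and -0.10 ± 0.07 in PANC-1 (95% interval -0.23 to 0.03, adjusted p = 0.372). RAF minus alone was -0.07 ± 0.10 (adjusted p = 0.777) and -0.19 ± 0.06 (adjusted p = 0.171), and in PANC-1 11 of 20 RAF libraries lay below every alone library.

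The S1P phosphatases went apart in AsPC-1: SGPP1 fell 2.23-fold under ERK inhibitors and SGPP2 rose 2.56-fold. SGPP1, the more widely expressed enzyme of the pair, held 4.85 to 10.98 CPM alone (median 7.11, n = 12), 1.59 to 10.7 under RAF inhibitors (median 5.27, n = 20) and 0.790 to 7.38 under ERK inhibitors (median 3.24, n = 16). Of the 16 ERK libraries 12 lay below every alone library. The difference from alone was -1.16 ± 0.26 for ERK inhibitors (edgeR, adjusted p = 0.000242) and -0.57 ± 0.24 for RAF inhibitors (adjusted p = 0.131), and ERK minus RAF was -0.59 ± 0.24 (adjusted p = 0.0721). Within plates A and B alone ERK minus alone was -1.28 and -1.31 (adjusted p = 0.00676 and 0.015), but with the drugs of the class also pooled as replicates plate B did not pass (-1.004, adjusted p = 0.101). Without RAF709 or Ravoxertinib, ERK minus RAF passed (-0.71, adjusted p = 0.0277, and -0.82, adjusted p = 0.0199). Among single drugs SCH772984 (-1.67 ± 0.44, adjusted p = 0.00416), Ulixertinib (-1.33 ± 0.43, adjusted p = 0.0187) and AZD0364 (-1.18 ± 0.41, adjusted p = 0.0337) passed. On single plates AZD0364 and Ulixertinib passed on neither and SCH772984 on plate B alone, and with no filter on low counts AZD0364 did not pass (adjusted p = 0.0546). Ravoxertinib did not (-0.45, adjusted p = 0.522), nor did any of the 5 RAF inhibitors.

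In PANC-1 SGPP1 held 3.74 to 11.2 CPM alone (median 7.37) and 4.64 to 13.7 under ERK inhibitors (median 8.92), with 3 of 16 ERK libraries above every alone library. ERK minus alone was 0.21 ± 0.18 there (adjusted p = 0.489). The change from RAF to ERK inhibitors differed between the lines by -0.89 ± 0.27 (AsPC-1 minus PANC-1, adjusted p = 0.0275), and the change from alone to ERK inhibitors by -1.37 ± 0.30 (adjusted p = 0.00048). With the drugs of a class pooled as replicates, the first was -1.01 and -0.81 within plates A and B alone (adjusted p = 0.159 and 0.428), and the second was -1.23 on plate B alone (adjusted p = 0.126).

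SGPP2 in AsPC-1 held 0 to 4.70 CPM alone (median 1.58, n = 12), 0 to 9.78 under RAF inhibitors (median 2.58, n = 20) and 1.90 to 11.48 under ERK inhibitors (median 3.88, n = 16). The groups overlapped more than those of SGPP1, with 6 of 16 ERK libraries above every alone library. ERK minus alone was 1.35 ± 0.35 (adjusted p = 0.00156), RAF minus alone 0.37 ± 0.36 (adjusted p = 0.637) and ERK minus RAF 0.99 ± 0.30 (adjusted p = 0.013). The last call rests on single drugs: without PLX8394 the value was 0.66 (adjusted p = 0.154) and without Sorafenib 0.73 (adjusted p = 0.119). On plate A alone it was 1.04 (adjusted p = 0.111), and with the drugs of a class pooled as replicates 0.69 on both plates (adjusted p = 0.112) and 1.02 and 0.38 on plates A and B (adjusted p = 0.089 and 0.754). ERK minus alone was 1.68 on plate A (adjusted p = 0.0168) and 0.94 on plate B, where it did not pass (adjusted p = 0.194). RAF709 (1.48 ± 0.47, adjusted p = 0.0271) and 3 of 4 ERK inhibitors passed alone, AZD0364 at 1.48 (adjusted p = 0.0197), SCH772984 at 1.40 (adjusted p = 0.0373) and Ulixertinib at 1.54 (adjusted p = 0.0152). On single plates RAF709, AZD0364 and SCH772984 passed on neither and Ulixertinib on plate A alone, and with no filter on low counts SCH772984 did not pass (adjusted p = 0.0503). Ravoxertinib did not (adjusted p = 0.21). Under MEK inhibitors SGPP2 stood at a median of 4.52 CPM and SGPP1 at 4.26 (n = 20), differences from alone of 1.34 ± 0.34 and -0.71 ± 0.24 given as a description. SGPP2 was not tested in PANC-1, where most libraries held no count, so its line difference could not be fitted by treatment group.

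**Figure D4:**
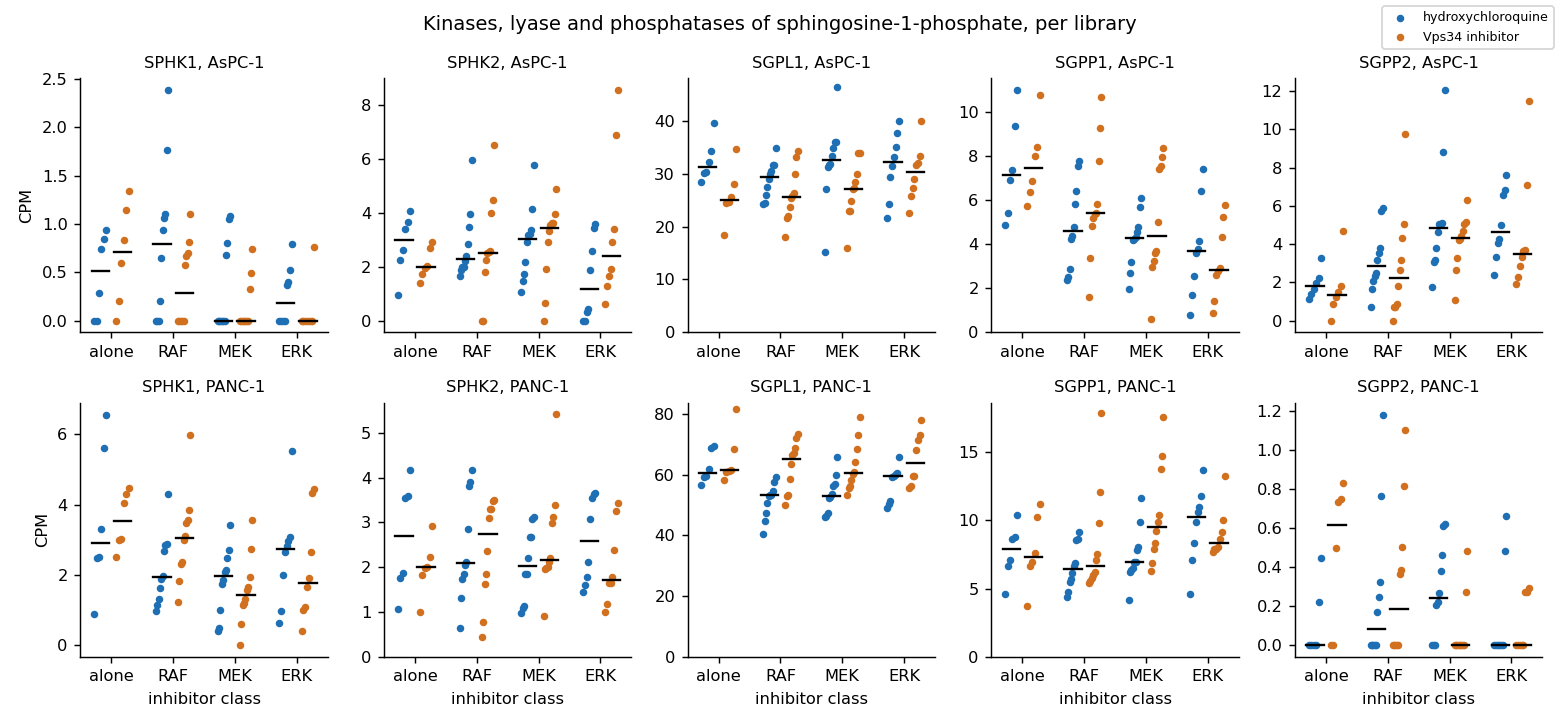
CPM of the 5 enzymes in each library, by drug class and cell line, with a bar at the median for each autophagy inhibitor. Over both autophagy inhibitors, the AsPC-1 median of SGPP1 goes from 7.11 alone to 3.24 under ERK inhibitors and that of SGPP2 from 1.58 to 3.88, while the SGPL1 medians of AsPC-1 lie between 26.9 and 31.5 in every class.

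Promoter sequence is shown for SGPP2, whose RNA rose under ERK inhibitors, and for SPHK1 and SGPL1, whose RNA did not pass, since part of ERK output runs through AP-1 (FOS and JUN dimers) and ETS factors. The table of RefSeq promoters (GRCh38.p14) held 4 of the 6 members, SPHK1, SPHK2, SGPL1 and SGPP2; SPNS2 and SGPP1 were not matched. Each window is the 250 bases before a transcript start, read 5′ to 3′, with capitals marking a match to the AP-1 letters TGANTCA or the ETS letters CCGGAA, searched on both strands.
SGPP2, chr2:222423738-222423987, plus strand: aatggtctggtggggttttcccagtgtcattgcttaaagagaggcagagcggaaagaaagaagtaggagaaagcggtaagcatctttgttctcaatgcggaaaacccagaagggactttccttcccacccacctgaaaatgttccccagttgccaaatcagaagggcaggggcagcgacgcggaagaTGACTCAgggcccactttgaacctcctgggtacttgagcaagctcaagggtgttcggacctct
SPHK1, chr17:76385028-76385277, plus strand: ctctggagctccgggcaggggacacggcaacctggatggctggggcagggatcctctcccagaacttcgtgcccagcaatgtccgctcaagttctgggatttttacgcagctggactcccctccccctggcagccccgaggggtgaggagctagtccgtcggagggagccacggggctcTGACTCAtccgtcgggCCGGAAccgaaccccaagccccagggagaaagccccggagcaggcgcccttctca
SGPL1, chr10:70815698-70815947, plus strand: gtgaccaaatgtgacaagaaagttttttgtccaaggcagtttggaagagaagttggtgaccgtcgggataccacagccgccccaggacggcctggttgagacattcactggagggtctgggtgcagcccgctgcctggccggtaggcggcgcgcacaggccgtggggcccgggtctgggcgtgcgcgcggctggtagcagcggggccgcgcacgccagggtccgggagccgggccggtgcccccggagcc
The SGPP2 window holds 1 AP-1 match, as do 6.57% of the 35116 windows of this length in the table, and no ETS match, which 14.5% of windows hold. The SPHK1 window holds 1 of each, and the other 2 SPHK1 windows hold neither. Of the 2 SPHK2 windows 1 holds 2 ETS matches, which overlap in 1 stretch, TTCCGGAA, matched on both strands. The second SGPP2 window and that of SGPL1 have neither, so matches stand in windows of genes that passed and of genes that did not. A match is a run of letters and not a measured site.

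The autophagy inhibitors were compared with each other, first without and then with kinase inhibitors. Without one, no member passed in either line (edgeR, 0 of 5 in each), where 5.93% of all tested genes passed in AsPC-1 and 2.49% in PANC-1. SPNS2 held 18.1 to 29.5 CPM with HCQ and 10.3 to 33.9 with the Vps34 inhibitor in AsPC-1 (-0.38 ± 0.20, Vps34 inhibitor minus HCQ, adjusted p = 0.329), and 21.8 to 40.8 against 21.7 to 32.5 in PANC-1 (-0.13 ± 0.18, adjusted p = 0.825). In AsPC-1 the highest Vps34 library, at 33.9 CPM, stood away from the next at 19.1. Without it the difference was -0.65 (adjusted p = 0.0203), which passes.

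With kinase inhibitors on both sides, 28 libraries against 28 per line, SPNS2 was lower with the Vps34 inhibitor than with HCQ in AsPC-1 (-0.40 ± 0.09, adjusted p = 0.000303), where 31.1% of all genes passed. Of the 28 libraries on each side 10 held MEK inhibitors, and without these the difference was -0.36 ± 0.11 (adjusted p = 0.0141). Within plates A and B alone it was -0.32 and -0.52, and plate B did not pass (adjusted p = 0.0172 and 0.0631). With all drugs of a class pooled as replicates it was -0.40, and -0.25 and -0.54 on single plates, and passed in none of these fits (adjusted p = 0.113, 0.584 and 0.242). MYBBP1A, which overlaps the end of SPNS2, was lower in the same comparison by more (-0.69 ± 0.13, adjusted p = 1.30e-05), and its part in the SPNS2 difference was not tested. ERK output genes were lower too, 6 of 10, with a median log2 difference of -0.36 against -0.026 for all tested genes. Their part in the SPNS2 difference was not tested either. In PANC-1 SPNS2 did not pass (-0.07 ± 0.10, adjusted p = 0.647). There SGPL1 passed instead, higher with the Vps34 inhibitor by 0.21 ± 0.05 (adjusted p = 0.000628), where 20.9% of all genes did. Without the MEK libraries it was 0.22 ± 0.06 (adjusted p = 0.0088), and on plate A alone it did not pass (0.16, adjusted p = 0.289). Its class means were 51.4, 53.7 and 57.02 CPM with HCQ and RAF, MEK or ERK inhibitors, and 62.6, 62.9 and 65.3 with the Vps34 inhibitor, while the alone groups stood at 62.5 ± 5.41 and 65.3 ± 8.63 (SD, n = 6 each). Whether the ERK effect on SPNS2 differs between the autophagy inhibitors was tested as an interaction, which 0.313% of all genes passed in AsPC-1: it was 0.22 ± 0.26 there (adjusted p = 0.873), and the effect was 2.36 ± 0.19 with HCQ and 2.58 ± 0.20 with the Vps34 inhibitor.

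Genes around S1P were then read from lists of the sphingolipid pathway, of which 48 were in the table, and 39 were tested in AsPC-1 and 40 in PANC-1. From RAF to ERK inhibitors 7 were higher and 3 lower in AsPC-1, and 2 were higher and 2 lower in PANC-1, where 19.9% and 13.2% of all tested genes passed. The median log2 difference of the tested genes was 0.04 in each line, against -0.012 in AsPC-1 and -0.0037 in PANC-1 for all tested genes. Under ERK inhibitors against alone 9 were higher and 6 lower in AsPC-1, and 4 were higher and 3 lower in PANC-1, against 31.1% and 14.1% of all tested genes.

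**Figure D5:**
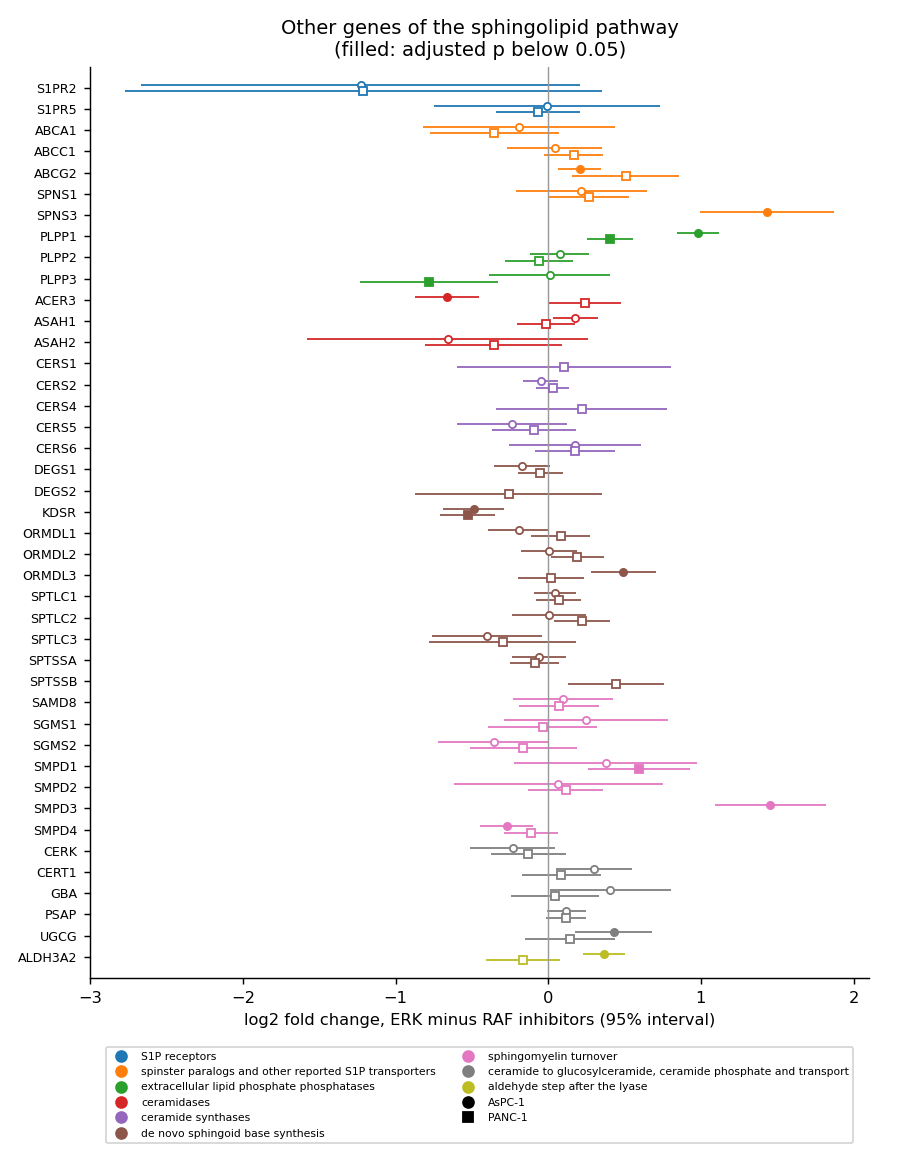
Log2 difference between ERK and RAF inhibitors for each tested gene of the sphingolipid lists, coloured by list, with circles for AsPC-1, squares for PANC-1, bars for the 95% interval and filled points for genes that passed. Filled points lie on both sides of 0 in each line, 7 higher and 3 lower in AsPC-1 and 2 and 2 in PANC-1.

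Among other reported S1P transporters and spinster paralogs, 2 of 5 tested in AsPC-1 were higher under ERK than under RAF inhibitors and 0 of 4 in PANC-1, where 19.9% and 13.2% of all tested genes passed. SPNS3, the paralog whose gene (chr17:4433688-4488208, plus strand) lies next to SPNS2, differed by 1.43 ± 0.22 (adjusted p = 9.30e-07). It held 0.242 to 6.09 CPM alone (median 1.71) and 1.43 to 13.2 under ERK inhibitors (median 8.52) in AsPC-1. In PANC-1, where SPNS2 was counted in every library, SPNS3 was at 0 in 10 of 12 alone and 14 of 16 ERK libraries and was not tested. ABCG2, a drug exporter reported to carry S1P, differed by 0.21 ± 0.07 (adjusted p = 0.0367) in AsPC-1. SPNS1, a lysosomal paralog, differed by 0.22 ± 0.22 in AsPC-1 (adjusted p = 0.564) and 0.27 ± 0.14 in PANC-1 (adjusted p = 0.209).

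The S1P receptors, which bind the exported lipid, had few counts. S1PR5 was at 0.563 to 7.98 CPM in the alone libraries of AsPC-1 and at 2.92 to 10.8 in those of PANC-1, and differed between ERK and RAF inhibitors by -0.01 ± 0.38 and -0.07 ± 0.14 (adjusted p = 1 and 0.827). S1PR2 had class medians of 1.47 to 3.04 CPM but single libraries far above them, the highest at 280.9 CPM under a RAF inhibitor in PANC-1 and 69.5 in AsPC-1. Its differences of -1.23 ± 0.73 and -1.21 ± 0.80 did not pass (adjusted p = 0.268 and 0.368). S1PR1 had a class median of 0 throughout and S1PR4 had 2 counts in 1 library of AsPC-1 and none elsewhere, so neither was tested. S1PR3 was not analysed here.

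Lipid phosphate phosphatases act on S1P outside the cell. PLPP1 was higher under ERK than under RAF inhibitors in AsPC-1 (0.98 ± 0.07, adjusted p = 1.18e-17) and in PANC-1 (0.40 ± 0.08, adjusted p = 0.000134). In AsPC-1 it held 42.1 to 76.0 CPM alone and 118.1 to 270.2 under ERK inhibitors, groups that did not overlap. In PANC-1 it held 19.1 to 49.7 alone and 40.0 to 82.4 under ERK inhibitors. PLPP3 was lower in PANC-1 (-0.78 ± 0.23, adjusted p = 0.016). Unlike SPNS2, PLPP1 was thus higher in both lines.

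Enzymes that supply sphingosine and ceramide were read in the same comparison. KDSR, which makes dihydrosphingosine in the early steps of sphingolipid synthesis, was lower under ERK than under RAF inhibitors in AsPC-1 (-0.49 ± 0.10, adjusted p = 0.000149) and in PANC-1 (-0.53 ± 0.09, adjusted p = 3.42e-05). ORMDL3, a brake on the first enzyme of that synthesis, was higher in AsPC-1 (0.49 ± 0.11, adjusted p = 0.000374). In all, 2 of 10 tested genes of this synthesis passed in AsPC-1, 1 in each direction, and 1 of 11, lower, in PANC-1, shares near or below the 19.9% and 13.2% of all tested genes. Of the ceramidases, which free sphingosine from ceramide, 1 of 3 passed in AsPC-1: ACER3 was lower (-0.66 ± 0.11, adjusted p = 1.76e-06), and 0 of 3 passed in PANC-1. No ceramide synthase passed, 0 of 3 in AsPC-1 and 0 of 5 in PANC-1. For these 2 lists, too, 19.9% and 13.2% of all tested genes passed in the comparison.

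Sphingomyelin turnover and the steps after the lyase differed between the lines in which genes passed. SMPD3, a neutral sphingomyelinase, was higher in AsPC-1 (1.45 ± 0.18, adjusted p = 5.28e-09), from 1.49 to 16.1 CPM alone (median 3.97) to 4.93 to 25.3 under ERK inhibitors (median 15.7), and SMPD4 was lower (-0.27 ± 0.09, adjusted p = 0.0211). SMPD1, the acid sphingomyelinase of the lysosome, was higher in PANC-1 (0.60 ± 0.17, adjusted p = 0.0125). ALDH3A2, which oxidises the aldehyde that the lyase releases, was higher in AsPC-1 (0.37 ± 0.07, adjusted p = 4.81e-05), and so was UGCG, the glucosylceramide synthase (0.43 ± 0.13, adjusted p = 0.0122). Whether these changes differ between the lines was not tested.

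Between the autophagy inhibitors alone, AsPC-1 had 4 pathway genes higher and 3 lower with the Vps34 inhibitor, and 0 of 40 passed in PANC-1 (edgeR), where 5.93% and 2.49% of all tested genes passed. SPNS3 (-1.80 ± 0.45, adjusted p = 0.0066) and SMPD3 (-1.49 ± 0.34, adjusted p = 0.00255) were lower, as was the ceramide synthase CERS2 (-0.32 ± 0.10, adjusted p = 0.0374). ABCG2 (0.70 ± 0.13, adjusted p = 0.000115), ALDH3A2 (0.58 ± 0.12, adjusted p = 0.00103), the cholesterol exporter ABCA1 (1.90 ± 0.56, adjusted p = 0.0268) and the acid ceramidase ASAH1 (0.42 ± 0.13, adjusted p = 0.0424) were higher. Of the 10 ERK output genes, 4 were also lower in this AsPC-1 comparison, FOSL1 among them (-0.76 ± 0.12, adjusted p = 2.51e-05). The median log2 difference of the 10 was -0.47, against 0.0076 for all tested genes. In PANC-1 0 of 9 passed. The part of ERK output in these values was not tested. With kinase inhibitors on both sides, 7 pathway genes were higher and 6 lower in AsPC-1 and 2 higher and 5 lower in PANC-1, against 31.1% and 20.9% of all tested genes.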

How the data were processed

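RNA of 68 libraries per line was analysed from the gene counts deposited by the authors, whole numbers without normalisation. The submitters' processing notes name kallisto 0.44.0 and GRCh38; the transcript annotation, the step to genes and the use of strand are not stated in the sources used here. Positions come from GENCODE 29 (GRCh38), promoters from RefSeq (GRCh38.p14).

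Group and line were read from the labels, and plate was taken from the code PSA or PSB in them. CPM is the count scaled to a library total of 1000000. Each line was fitted over its 68 libraries with edgeR 4.0.16 (R 4.3.3; robust quasi-likelihood test, TMM factors, low counts filtered by the 30 treatment groups, plate as a covariate, 37 residual degrees of freedom), which kept 12761 genes (AsPC-1) or 12627 (PANC-1). A class value is the mean of its drug groups, each autophagy inhibitor weighted equally. Line differences come from a fit of both lines (13960 genes, plate within line). Tests are two-sided, with Benjamini-Hochberg adjustment over all genes and a threshold of 0.05. SE is the log2 fold change over the root of F, and intervals are 95%. Where a treatment had no count of a gene, no estimate for that gene that uses the treatment is given. Counts and medians over the gene lists still include such genes, among them 1 of the 9 ERK output genes tested in PANC-1 under ERK inhibitors. Likeness is Pearson's r over 30 treatment means (log2 CPM, prior count 2). The code was tested on simulated data.

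Labels give no replicate numbers; plate serves as the block. Alternatives were DESeq2 1.42.0, RLE size factors, no filter, no plate term, drugs as replicates, each plate alone (with and without drugs pooled), the autophagy inhibitors without MEK libraries, and leaving out drugs or alone libraries. The members and gene lists were chosen with earlier results of these data known. By rule, the text names all members, the S1P receptors, SPNS1, SPNS3, SPRY4, DUSP6, the 3 genes most like SPNS2 and SPHK1, and up to 2 genes per list and line with the smallest adjusted p under 0.05 in ERK minus RAF and in the Vps34 inhibitor minus HCQ alone. ABCA1, DBP, MYBBP1A, PRPSAP1 and the marker genes named singly were chosen after their values were seen. PHLDA1 and CCND1, ERK output genes that the rule also takes, are not described.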

Additional observations from a re-analysis of the deposited data

Results flagged for a closer look

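Among 24 groups of 4 to 10 libraries tested for a single library far from its group, 1 passed, where chance gives about 1 in 20: SPNS2 in AsPC-1 with the Vps34 inhibitor alone, whose highest library stood at 33.9 CPM. The next highest stood at 19.1 CPM, and the gap was 0.627 of the group's range, just past the critical value of 0.625.

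The effect of ERK inhibitors differed between the lines for SPNS2 and SGPP1. The line difference (AsPC-1 minus PANC-1, log2) of ERK minus RAF was 2.72 for SPNS2 and -0.89 for SGPP1, and that of ERK minus alone was 4.15 and -1.37. Each passed the test of the difference itself. SPNS2 was chosen for going opposite ways in the lines under MEK inhibitors. The difference of ERK minus alone shares its alone libraries with that MEK comparison, and that of ERK minus RAF shares no library with it. For SPNS2 both differences passed under every alternative run, those of single plates included. For SGPP1, with the drugs of a class pooled as replicates on a single plate, the first passed on neither plate, and the second passed on plate A and not on plate B.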

How the results depend on the processing

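No member value that had passed its test changed direction under the alternatives run. Of the SPNS2 values, 386 kept their side of the threshold, 18 lost it and 1 gained it. For the other members 1466 kept it, 28 lost it and 2 gained it, and 40 CPM levels on TMM library sizes moved by less than 1 SD. Planned fits of a single plate changed 2 choices, since they also pooled the drugs of a class as replicates; fits of a single plate by treatment group, and the comparison of the autophagy inhibitors without MEK libraries, were added after the data were seen. For SPNS2 in AsPC-1, RAF minus alone was 1.32 on plate A and 1.01 on plate B with drugs pooled, 0.63 on plate B by treatment group and 0.41 without RAF709. The Vps34 inhibitor minus HCQ with kinase inhibitors was -0.25 and -0.54 there on single plates with drugs pooled, -0.52 on plate B by treatment group and -0.40 with drugs as replicates. In PANC-1, ERK minus RAF was -0.85 and -1.14 on plates A and B with drugs pooled. RAF minus alone was -0.62 and -0.44 so, -0.76 and -0.61 on single plates by treatment group, -0.53 with drugs as replicates and -0.34 without RAF709; the cause was not tested. Leaving out each alone library moved the difference between the autophagy inhibitors alone in AsPC-1 between -0.65 and -0.26. Without the replicate block (plate left out), SPNS2 was 1.71 in AsPC-1 and -1.02 in PANC-1 for ERK minus RAF, and no call of a member changed. The line differences were not refitted without single libraries.

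Counts of all called genes moved by over 1.5 times in 48 cases. ERK minus RAF called 2535 genes in AsPC-1 (1104 and 769 on plates A and B with drugs pooled, as for the plate counts that follow) and 1670 in PANC-1 (443 and 299). ERK minus alone called 3971 in AsPC-1 (1800 on plate B) and 1784 in PANC-1 (472 and 490). RAF minus alone called 1105 in AsPC-1 (123 and 14 on single plates, 557 without RAF709, 612 without GDC-0879). In PANC-1 it called 68 (178 by DESeq2, 17 with drugs as replicates, 0 and 1 on single plates, 5 without RAF709, 198 without Sorafenib). The Vps34 inhibitor minus HCQ alone called 757 in AsPC-1 (91 and 21) and 314 in PANC-1 (6 and 3). With kinase inhibitors it called 3968 (2416 and 1419) and 2638 (510 and 1103). The line difference of ERK minus RAF called 1063 (205 and 135) and that of ERK minus alone 1941 (579 and 460). The ERK effect by autophagy inhibitor called 40 in AsPC-1 (117 by DESeq2, 23 without the block) and 0 in PANC-1 (4 by DESeq2).

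Depth limits SPHK1, SPHK2 and SGPP2 most, whose median counts per library were 11 or fewer, so that differences of the size seen for SGPL1 were not detectable in them.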
